A study of Canis lupus familiaris with 45 samples.

Results

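The genes described here are those of the mitochondrial ribosomal proteins, chosen as all probe sets whose array annotation gives 1 gene symbol starting with MRPL (large subunit) or MRPS (small subunit). The rule found 78 probe sets for 54 genes among 23836 probe sets, with 33 genes (45 probe sets) named for the large subunit and 21 genes (33 probe sets) named for the small subunit. The rule reads the annotation and no signal. The samples were left ventricular tissue of 15 male, age-matched dogs, hybridised to Affymetrix arrays, with 3 dogs in each of 5 groups. Day-0 dogs were unpaced, while the other 12 dogs carried a pacemaker that drove the right ventricle at 240 beats per minute. Pacing lasted 3 days in the Day-3 group, 1 week in Week-1, 2 weeks in Week-2 and 3 to 4 weeks in End-stage, in which haemodynamic measurements established heart failure. Each dog gave 1 piece of tissue from the full thickness of the wall, from which RNA was isolated 3 times, so that 45 arrays stood for 15 dogs. The labels did not say whether Day-0 dogs were operated on, so surgery and pacing cannot be told apart.

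Mitochondria carry their own ribosomes, which translate the few messenger RNAs of the mitochondrial genome, all of them for core subunits of the respiratory chain and of ATP synthase. The ribosomal RNAs come from the mitochondrial genome, but every protein of both subunits is encoded in the nucleus, made in the cytosol and imported. The small subunit binds the messenger RNA and decodes it, while the large subunit joins the amino acids and holds the exit tunnel toward the inner membrane. Many of the proteins descend from bacterial ribosomal proteins and others are found only in mitochondria. Heart muscle is rich in mitochondria and depends on this translation for oxidative phosphorylation. Symbols do not always follow structure: MRPS18A and MRPS30 are now known to sit in the large subunit, MRPS36 is now known as a part of the 2-oxoglutarate dehydrogenase complex, and MRPL58 (ICT1) is a release factor relative built into the large subunit.

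Of the 78 probe sets, 71 had a mean signal above the limit of 22.8 and were tested (41 large and 30 small), and every one of the 54 genes kept at least 1 of them. The 7 probe sets below the limit belonged to MRPL1, MRPL21 (both of its other probe sets), MRPL47, MRPS18C (2) and MRPS28. Where a gene had several tested probe sets, the one with the highest mean signal stood for the gene in counts of genes. The 54 genes lay on 26 chromosomes of the dog assembly UU_Cfam_GSD_1.0. MRPL44, MRPL12, MRPL10 and MRPS2 had no probe set under those symbols and were not analysed here.

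The arrays of a dog were compared over the 200 probe sets that varied most between dogs. In 41 of the 45 arrays the closest array was another isolation of the same dog, while 4 arrays were not. These came from the first Week-1 dog and the first End-stage dog, and each was closest to an array of the other, with correlations of 0.83 to 0.95. Results are therefore also given without both dogs. The ratio of 3′ to 5′ GAPDH signal, a sign of RNA integrity, was 0.932 to 0.982 in Day-0 dogs and 0.88 to 1.02 in paced dogs. The same ratio for actin was 0.227, 0.121 and 0.134 in the Day-0 dogs and 0.122 to 0.266 in paced dogs. Of the defining cardiomyocyte genes, 12 of 19 were measured above the signal limit, among them MYH7, TNNT2 and RYR2. The others, MYH6, MYBPC3, PLN, CKM, CASQ2, NPPA and NPPB, had no probe set under those symbols.

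Most mitochondrial ribosomal protein genes had lower signals in paced hearts than in unpaced ones, and the difference was present after 3 days and of like size at every later stage. The median difference of the 54 genes from Day-0 on the log2 scale was -0.14 at Day-3, -0.16 at Week-1, -0.20 at Week-2 and -0.15 at End-stage. Over all 5278 genes with 1 symbol the same medians were 0, -0.02, -0.02 and -0.02. The number of genes below their Day-0 mean was 41 of 54 at Day-3, 46 at Week-1, 48 at Week-2 and 47 at End-stage, where 49.2%, 54.6%, 50.8% and 54.3% of all tested probe sets lay below Day-0. Expressed as the mean of the 4 paced groups minus Day-0, the median was -0.15 and 46 of the 54 genes lay below 0, beside 52.8% of all probe sets. Without both doubtful dogs this median was -0.16 and the count 47.

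The same was seen dog by dog. The Day-0 dogs make up the mean that all dogs are set against here, which draws their own values toward 0. The median of the 54 genes, set against the Day-0 mean of each gene, was -0.05, 0 and 0.04 in the 3 Day-0 dogs. It was -0.06, -0.21 and -0.17 in the Day-3 dogs and -0.15, -0.13 and -0.16 in the Week-1 dogs. It was -0.26, -0.07 and -0.25 in the Week-2 dogs and -0.21, -0.19 and -0.11 in the End-stage dogs. All 12 paced dogs lay below all 3 Day-0 dogs, with Day-3 dog 1 and Week-2 dog 2 close to the lowest Day-0 dog. These medians had an SD of 0.067 among dogs of the same group. By symbol, the large subunit kept this order, at -0.12 in the highest paced dog and -0.07 in Day-0 dog 1. The small-subunit median was -0.04 in both Day-3 dog 1 and Day-0 dog 1. Without MRPS18A, MRPS30 and MRPS36 it was -0.03 in Day-3 dog 1, and -0.04 in both Week-2 dog 2 and Day-0 dog 1. In bulk tissue, fewer cells of a type and less RNA per cell cannot be told apart.

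**Figure D1:**
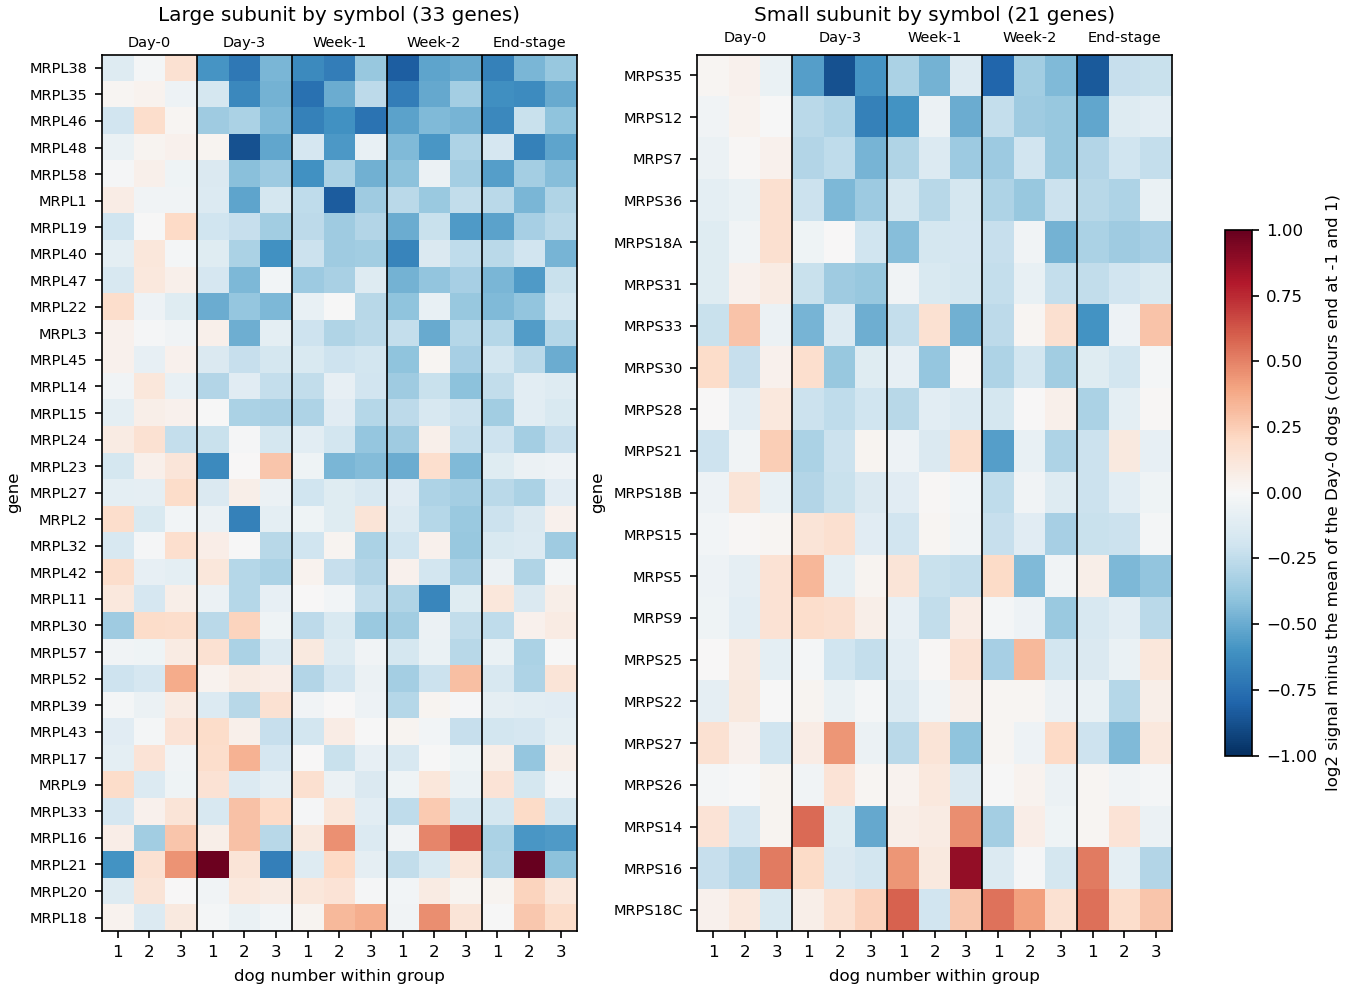
Log2 signal of each of the 33 large-subunit and 21 small-subunit genes (rows, by symbol, sorted by the mean paced difference) in each of the 15 dogs (columns, grouped by stage), minus the mean of the 3 Day-0 dogs; blue is lower and red is higher. The upper rows of both panels are blue in the 12 paced columns, and the lowest rows, with MRPS18C and MRPS16 among them, are not.

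Single genes were tested with limma on the mean log2 signal per dog, with p-values adjusted by Benjamini-Hochberg over all 14302 probe sets and a threshold of 0.05. MRPL38 passed in the mean of the 4 paced groups, where 0.161% of all probe sets were called lower and 0.14% higher. No member passed in any comparison of 1 stage with Day-0 or of 1 stage with the preceding one, and none passed the F test over the 5 groups, where the smallest adjusted p was 0.299. The share of all probe sets called in those comparisons was 0% at Day-3, 0.028% at Week-1, 0.0839% at Week-2, 0.014% at End-stage, 0% in each comparison of consecutive stages and 0% in the F test. At an unadjusted p below 0.05 the F test took 11 of the 71 member probe sets, beside 7.37% of all probe sets.

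At the same unadjusted limit, 20 of the 54 genes (24 of 71 probe sets) were lower and 0 higher in the mean of the paced groups, beside 6.32% of all probe sets lower and 5.37% higher. By stage, the genes lower at this limit numbered 12 at Day-3 (background 4.35%), 8 at Week-1 (5.1%), 14 at Week-2 (6.14%) and 15 at End-stage (4.53%). Counted as probe sets, the unit of the background, they were 13, 9, 17 and 18 of 71. No gene was higher at any stage in the fit of all 15 dogs, and 1 member probe set was, at Week-2. Of all probe sets, 3.72%, 3.9%, 5.03% and 3.7% were higher. Without both doubtful dogs the count was 18 in the mean of the paced groups, 12 at Day-3, 5 at Week-1, 14 at Week-2 and 11 at End-stage, beside 5.93%, 4.11%, 4.66%, 5.78% and 4.34% of all probe sets. In that fit 1 gene, MRPL18, was higher at Week-1, beside 3.1% of all probe sets, and none was at the other stages. Counted by dogs instead of p-values, all 3 dogs of the stage lay below all 3 Day-0 dogs in 17 genes at Day-3, 19 at Week-1, 19 at Week-2 and 22 at End-stage. The background for these counts was 6.44%, 9.4%, 9.21% and 7.94% of all probe sets. In that unit the members were 18, 22, 24 and 27 of 71 probe sets, or 25.4%, 31%, 33.8% and 38%. In the opposite direction the members numbered 0, 0, 1 and 1, beside 6.16%, 6.73%, 8.08% and 6.33% of all probe sets. All 12 paced dogs lay below all 3 Day-0 dogs in 11 genes (12 of 71 probe sets), beside 1.61% of all probe sets. No member lay above in all 12 dogs, beside 0.909%.

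MRPL38 lies on chromosome 9 from 5586827 to 5592913 and encodes a large-subunit protein with no bacterial counterpart, placed at the central protuberance. Its signal was 268, 290 and 326 in the Day-0 dogs, 194, 179 and 214 at Day-3 and 189, 181 and 225 at Week-1. It was 166, 204 and 207 at Week-2 and 184, 214 and 226 at End-stage. The highest of the 12 paced dogs lay below the lowest Day-0 dog. MRPL38 fell by 0.57 on the log2 scale in the mean of the paced groups (SE 0.11, 1.48-fold, adjusted p = 0.048), and its differences at the 4 stages ran from -0.62 at Week-2 to -0.50 at End-stage. This call lay at the edge of the threshold: it was lost in 22 of 28 alternative fits, with adjusted p-values from 0.0116 to 0.246, while the difference stayed between -0.63 and -0.49. Among the 15 fits with 1 dog left out it held only without Day-3 dog 1 (adjusted p = 0.0391), and with both doubtful dogs left out the adjusted p was 0.0876.

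MRPL46 and MRPL35 did not pass the threshold in this fit and did so in some of the alternative ones. MRPL46 (chromosome 3, 52187065 to 52197103), another protein of the central protuberance without a bacterial counterpart, had signals of 407, 527 and 471 at Day-0 and of 364, 374 and 343 at Day-3. It read 292, 306 and 279 at Week-1, 322, 344 and 338 at Week-2, and 298, 401 and 353 at End-stage. Every paced dog lay below every Day-0 dog, although End-stage dog 2, at 401, came close to the lowest of them. The mean paced difference of MRPL46 was -0.49 (SE 0.10, 1.4-fold, adjusted p = 0.0563), and at Week-1, where it was lowest, -0.67 (SE 0.13, adjusted p = 0.0878).

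MRPL35 (chromosome 17, 39236530 to 39247380) is the mitochondrial relative of bacterial ribosomal protein L35. Its signal was 508, 512 and 483 at Day-0, 443, 321 and 360 at Day-3, and 299, 355 and 417 at Week-1, then 310, 351 and 397 at Week-2 and 328, 323 and 353 at End-stage. The 12 paced dogs again lay below all Day-0 dogs, with Day-3 dog 1 the highest of them. MRPL35 differed by -0.51 in the mean of the paced groups (SE 0.12, adjusted p = 0.0711) and by -0.58 at End-stage (adjusted p = 0.2).

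MRPL58 read 407, 423 and 398 at Day-0, 370, 306 and 318 at Day-3, 268, 329 and 293 at Week-1, 308, 394 and 323 at Week-2, and 279, 323 and 305 at End-stage. Week-2 dog 2, at 394, came close to the lowest Day-0 dog, and the groups did not overlap. Its mean paced difference was -0.37 (SE 0.10, adjusted p = 0.126). MRPL38, MRPL58 and the small-subunit gene MRPS7 are neighbours on chromosome 9, between 5586827 and 6334888, which was noticed after their values were seen. The 10 other tested genes of this interval had a median paced difference of -0.02, with 5 of the 10 below 0 and a range from -0.46 to 0.28.

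**Figure D2:**
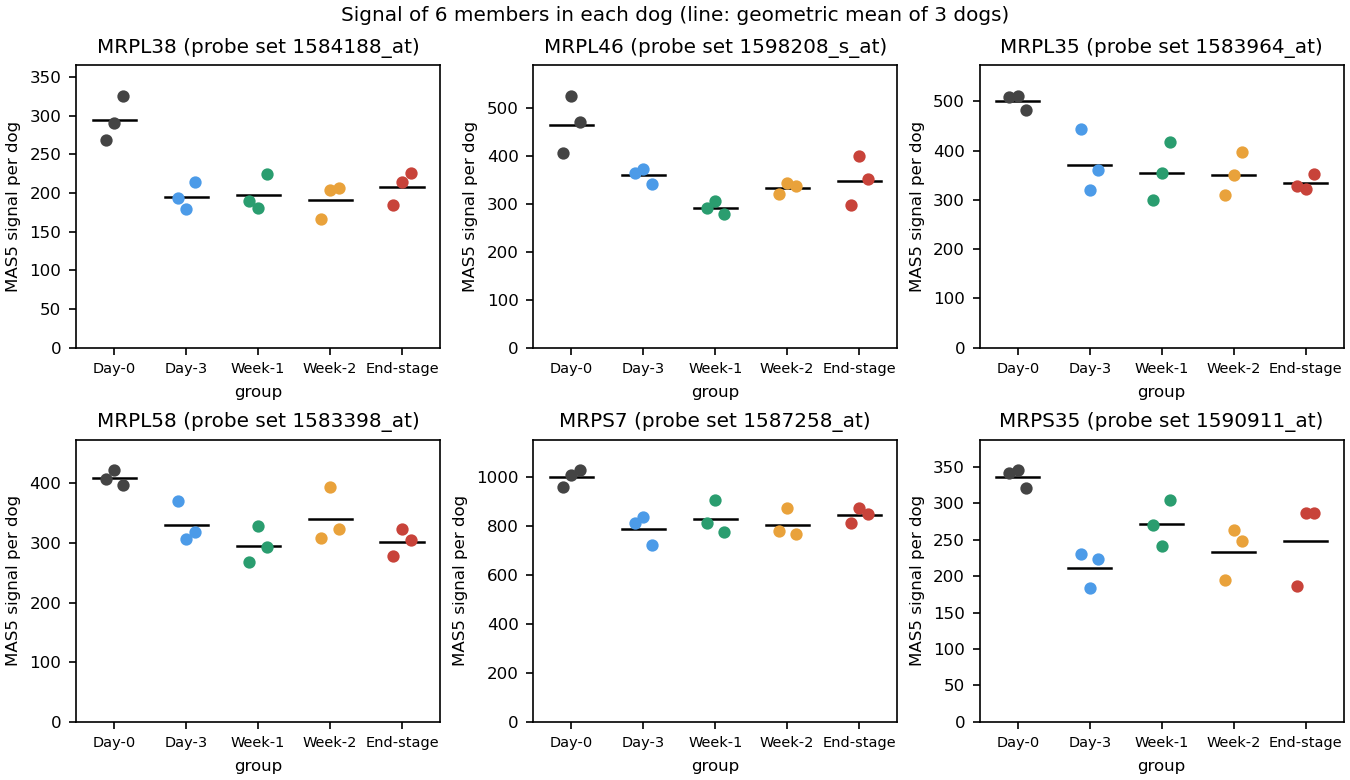
MAS5 signal of 6 members in each dog, by group, on linear axes that start at 0; points are dogs (means of 3 isolations) and the line is the geometric mean of the 3 dogs. In each panel the 12 paced dogs lie below the 3 Day-0 dogs; MRPL38 read 268 to 326 at Day-0 and 166 to 226 in paced dogs.

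Other large-subunit genes showed the same order of groups with smaller differences. MRPL1, relative of the bacterial L1 stalk protein, read 549 to 594 at Day-0 and 318 to 514 in paced dogs, lowest in Week-1 dog 2 (mean paced difference -0.35, adjusted p = 0.218). MRPL19 read 303, 348 and 401 at Day-0 and 236 to 303 in paced dogs, level with the lowest Day-0 dog at this rounding (-0.34, adjusted p = 0.163). MRPL40, the brightest member, read 1860, 2160 and 1960 at Day-0 and 1260 to 1830 in paced dogs (-0.33, SE 0.12, adjusted p = 0.265). In all 3 genes no paced dog exceeded a Day-0 dog.

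MRPL48 read 1080, 1150 and 1160 at Day-0 but varied widely within paced groups, from 616 in Day-3 dog 2 to 1150 in Day-3 dog 1, so that the groups overlapped in the mean of the paced groups (-0.41, SE 0.16, adjusted p = 0.31). Only Day-3 overlapped with Day-0. The 3 dogs of Week-1 (756 to 1070), Week-2 (755 to 913) and End-stage (706 to 1000) lay below all Day-0 dogs. The End-stage difference of MRPL48 was -0.46 (adjusted p = 0.559). MRPL22, which lines the exit tunnel and was among the dimmest members, read 148 to 182 at Day-0 and 115 to 123 at Day-3 (-0.45, adjusted p = 0.351). Its Week-1 dogs, at 134 to 161, overlapped with Day-0, and the mean paced difference was -0.30 (SE 0.11, adjusted p = 0.276).

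MRPL3, a protein near the peptidyl transferase centre in which inherited mutations cause cardiomyopathy, read 771, 741 and 730 at Day-0. It read 775, 532 and 696 at Day-3, 606 to 646 at Week-1, 527 to 633 at Week-2 and 506 to 614 at End-stage. Only Day-3 dog 1 was as high as the Day-0 dogs. The mean paced difference of MRPL3 was -0.29 (SE 0.11, adjusted p = 0.279), and -0.31 without both doubtful dogs. MRPL11, whose bacterial relative sits at the stalk base, read 456 to 554 at Day-0 and overlapped with every paced group. Its lowest dog was Week-2 dog 2 at 327, and its mean paced difference was -0.14.

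MRPL3 and MRPL47 were 2 of the 4 genes, with MRPL32 and MRPL35, whose difference from Day-0 was lower at each later stage, which was noticed after their values were seen and compared with 1.38% of all genes. MRPL3 ran from -0.18 at Day-3 to -0.26, -0.34 and -0.38, and MRPL47, relative of bacterial L29 at the tunnel exit, from -0.21 to -0.27, -0.40 and -0.42. MRPL47 read 751, 902 and 868 at Day-0 and 610, 565 and 717 at End-stage. No step between consecutive stages passed the threshold for any of the 4, and the 4 differences share the Day-0 dogs.

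The small-subunit gene with the largest difference was MRPS35 (chromosome 27, 26531536 to 26573313), which has no bacterial counterpart. It read 342, 346 and 321 at Day-0, 230, 184 and 223 at Day-3, 270, 242 and 305 at Week-1, 194, 263 and 248 at Week-2, and 187, 287 and 287 at End-stage. Every paced dog lay below every Day-0 dog, and the Day-3 dogs lay below all Week-1 dogs. MRPS35 differed by -0.67 at Day-3 (SE 0.17, 1.59-fold, adjusted p = 0.285) and by -0.48 in the mean of the paced groups (SE 0.14, adjusted p = 0.139). Without both doubtful dogs the latter was -0.43.

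MRPS12, relative of the bacterial decoding-centre protein S12, had 3 tested probe sets. The brightest read 493, 516 and 503 at Day-0 and 315 to 484 in paced dogs, with no overlap (-0.34, adjusted p = 0.265). The middle one read 220, 238 and 257 at Day-0 and 184, 163 and 138 at Day-3 (-0.57 at Day-3, adjusted p = 0.303, and -0.39 in the mean of the paced groups). The dimmest read 53.5 to 60.8 at Day-0 and 37.9 to 69.8 in paced dogs, and differed by -0.11.

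MRPS7, which in bacteria helps to start the folding of small-subunit RNA, read 960, 1010 and 1030 at Day-0. Its paced dogs read 723 to 838 at Day-3, 775 to 908 at Week-1, 767 to 873 at Week-2 and 814 to 872 at End-stage. The groups did not overlap, and the spread within each was narrow: the mean paced difference was -0.29 with an SE of 0.08 (adjusted p = 0.136). MRPS36 read 1160, 1180 and 1380 at Day-0 and 906 to 1180 in paced dogs (-0.27, SE 0.09, adjusted p = 0.206), with End-stage dog 3 inside the Day-0 range. Leaving MRPS36 out, since it is not a ribosome component, left 45 of 53 genes below 0 with the same median of -0.15.

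The S18 family is split over 3 genes. MRPS18A read 375, 399 and 456 at Day-0 and 294 to 409 in paced dogs (-0.23), and MRPS18B read 350 to 404 at Day-0 and 302 to 373 in paced dogs (-0.13). MRPS18C ran the other way. It was the dimmest member gene, at 38, 39.7 and 33.2 at Day-0, 38.4, 40.9 and 43.4 at Day-3, 55.5, 32.4 and 44.4 at Week-1, 53.6, 48.9 and 40.9 at Week-2, and 53.9, 41.6 and 44.8 at End-stage. Its Week-2 and End-stage dogs lay above all Day-0 dogs, and it was the 1 gene counted above at each of these stages. The differences of MRPS18C were 0.37 at Week-2 (SE 0.21, adjusted p = 0.567) and 0.33 at End-stage (adjusted p = 0.775), and the latter was 0.23 without both doubtful dogs.

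Not all members were lower. MRPS22, in which inherited mutations cause mitochondrial disease with cardiomyopathy, read 315 to 361 at Day-0 and 276 to 350 in paced dogs, a difference of -0.04. MRPS26 and MRPL33 differed by 0 and MRPL9 by -0.02 in the mean of the paced groups. MRPS26 read 651 to 670 at Day-0 and 595 to 724 in paced dogs, and MRPL20 read 523 to 625 at Day-0 and 559 to 668 in paced dogs (0.07, SE 0.08). MRPL18, a protein that binds 5S ribosomal RNA in bacteria, read 304 to 358 at Day-0 and 319 to 460 in paced dogs (0.13, SE 0.11, adjusted p = 0.743). MRPL20 and the small-subunit gene MRPS18C were higher than Day-0 at all 4 stages, against 35 genes that were lower at all 4.

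That share, 64.8% of the 54 genes lower at all 4 stages, compared with 28.3% of all genes. Since the 4 stages share the Day-0 dogs, agreement between stages is no independent repeat. By symbol, 23 of 33 large-subunit genes and 12 of 21 small-subunit genes were lower at all 4. The medians of the large-subunit genes were -0.14, -0.17, -0.24 and -0.20 at the 4 stages, and those of the small-subunit genes -0.11, -0.11, -0.14 and -0.14. In the mean of the paced groups the medians were -0.18 and -0.13. Moving MRPS18A and MRPS30 to the large subunit, where they belong by structure, and leaving out MRPS36 gave medians of -0.18 for 35 genes and -0.10 for 18. Whether the subunits differ was not tested.

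The genes were also divided by whether bacteria have a counterpart, a division drawn from general knowledge of ribosomal protein nomenclature and not from the array annotation. Among the 20 genes without a bacterial counterpart, 19 lay below 0 in the mean of the paced groups (median -0.17) and 9 did so with an unadjusted p below 0.05. Of the 34 genes with one, 27 lay below 0 (median -0.14), 11 of them at that limit. The shares of all probe sets were 52.8% below 0 and 6.32% lower at that limit. MRPL38, MRPL46, MRPL58 and MRPS35 belong to the first class, and MRPL35, MRPL1, MRPS12 and MRPS7 to the second. The unadjusted limit took 8 of the 20 and 4 of the 34 at Day-3 (background 4.35%), 3 and 5 at Week-1 (5.1%), 6 and 8 at Week-2 (6.14%), and 6 and 9 at End-stage (4.53%). Whether the classes differ was not tested. The difference was of like size in brighter and dimmer members: the median was -0.16 in the 27 genes with the higher signals and -0.14 in the other 27.

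Each stage was also compared with the preceding one, and no member passed the threshold. From Day-3 to Week-1 the median difference of the 54 genes was 0, with 26 below 0 (background 55.8%). From Week-1 to Week-2 it was -0.05, with 34 below (46.8%), and from Week-2 to End-stage it was 0, with 28 below (51.8%). With arrays centred on their medians the 3 values were 0.09, -0.17 and 0.13, beside 0.06, -0.11 and 0.12 over all probe sets. At an unadjusted p below 0.05 the genes numbered 1 lower and 1 higher at the first step (background 2.82% and 2%), 1 and 0 at the second (2.66% and 3.12%), and 1 and 1 at the third (2.3% and 1.89%).

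The dogs of consecutive stages did not overlap in some members, although none passed the threshold. From Day-3 to Week-1, MRPS35 was higher by 0.36 and MRPL22 by 0.33, and MRPL46 differed by -0.30, each with no overlap between the 3 dogs of either stage (adjusted p = 0.994 for each). Over the 54 genes such a separation was seen in 2 genes lower and 5 higher (background 5.63% and 3.68%). From Week-1 to Week-2, MRPS16 differed by -0.58 and MRPL46 by 0.20 (adjusted p = 0.847 for MRPS16), with 2 genes lower and 1 higher without overlap (background 5.2% and 6.01%). A dim second probe set of MRPS31, at 42.5 to 61.9 in Week-1 and 21.4 to 40 in Week-2, differed by -0.87, whereas the bright one read 970 to 1070 and then 926 to 1040.

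From Week-2 to End-stage the largest difference was in MRPL16 (chromosome 21, 51265921 to 51269678), relative of bacterial L16 at the binding site of transfer RNA. Its brighter probe set read 519, 746 and 819 at Week-2 and 426, 355 and 359 at End-stage. The groups did not overlap (-0.85, SE 0.21, 1.8-fold, adjusted p = 0.999), where 5.4% of all probe sets were lower without overlap. Its Day-0 dogs read 558, 417 and 645. The End-stage dogs therefore overlapped with Day-0 and the Week-2 dogs spanned from within the Day-0 range to above it. MRPS30, by contrast, was higher by 0.17 with no overlap, where 3.88% of all probe sets were. The separation was slight, since Week-2 dog 2 and End-stage dog 2 both read 329 at this rounding.

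The second probe set of MRPL16 split the dogs and not the groups. It read 193, 156 and 227 at Day-0, 200, 1370 and 218 at Day-3, 220, 1520 and 1120 at Week-1, 192, 1300 and 1700 at Week-2, and 200, 130 and 643 at End-stage. The signal was high in 6 of the 12 paced dogs and low in the other 6 and in all 3 Day-0 dogs, and the 3 isolations of each dog agreed. The brighter probe set showed this split in part. Day-3 dog 2, Week-1 dog 2 and Week-2 dogs 2 and 3 read 650, 730, 746 and 819 on it, above all other dogs. Week-1 dog 3 and End-stage dog 3, at 483 and 359, lay among the dogs low on the second probe set, which read 355 to 645. The 2 probe sets correlated at 0.61. Week-2 dogs 2 and 3, high on both, are also the highest dogs in the Week-2 to End-stage difference of the brighter probe set. On the log2 scale, the second probe set varied with an SD of 1.35 between dogs of the same group and of 0.23 between isolations of a dog. The ratio of these variances, on the scale of 3 isolations a dog, was 101, at percentile 100 of all tested probe sets. Its mean paced difference of 1.35 had an SE of 0.73 (adjusted p = 0.523), and this probe set was singled out after its values were seen.

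MRPL21 was of the same kind. It read 324, 545 and 669 at Day-0, 970, 537 and 306 at Day-3, 415 to 564 at Week-1 and Week-2, and 399, 1080 and 369 at End-stage. Day-3 dog 1 and End-stage dog 2 stood above all others in all 3 isolations, and the ratio of variances between dogs and isolations, 55.5, lay at percentile 99.9. By this ratio 6 of the 71 member probe sets, with MRPL23, MRPS14, MRPL40 and MRPL57 as the others, were among the top 10% of all probe sets. The median ratio was 2.66 over the members and 2.15 over all probe sets. For most members the spread between dogs was small: the median SD was 0.174 between dogs of a group and 0.172 between isolations, against 0.268 and 0.307 over all probe sets.

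MRPS16, relative of a bacterial small-subunit assembly protein, showed the grouping of the doubtful arrays. It read 514, 492 and 861 at Day-0, 687, 545 and 530 at Day-3, 818, 644 and 1100 at Week-1, 546, 596 and 533 at Week-2, and 864, 563 and 492 at End-stage. Within Week-1 dog 1 its 3 isolations read 1040, 535 and 986, and within End-stage dog 1 they read 625, 1020 and 1010. The isolation that read low in each was the one whose closest array belonged to the other dog's low isolation. The Week-1 difference of MRPS16 from Day-0 was 0.47 (SE 0.25, adjusted p = 0.613), and its mean paced difference was 0.09, or 0.04 without both dogs.

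**Figure D3:**
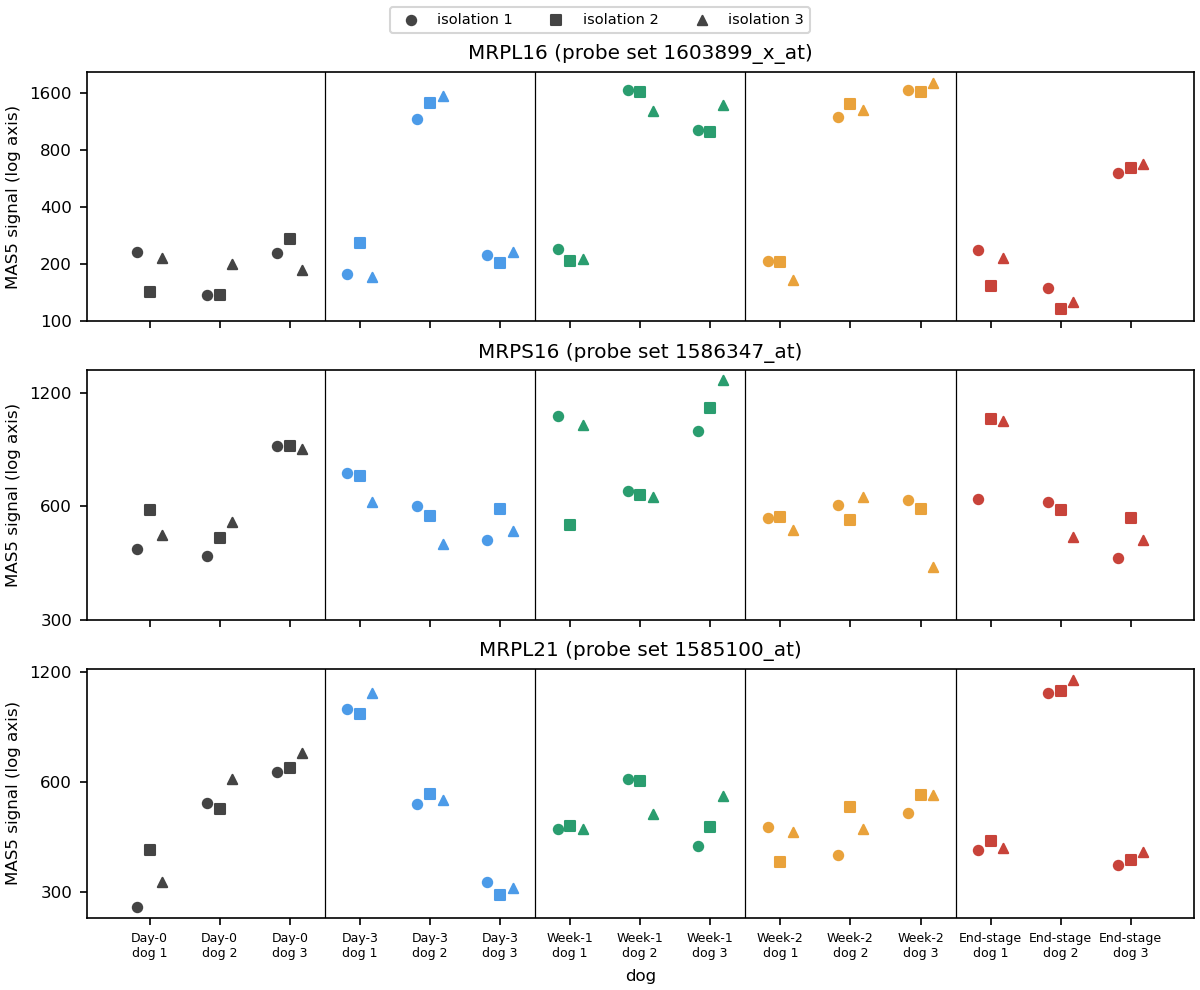
MAS5 signal (log axes) of 1 probe set each of MRPL16, MRPS16 and MRPL21 on all 45 arrays, by dog; marker shapes are the 3 RNA isolations and colours the groups. For MRPL16, 6 paced dogs stand apart in all isolations, and for MRPS16 the isolations of Week-1 dog 1 (535 to 1040) and End-stage dog 1 (625 to 1020) disagree.

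Of the 13 genes with several tested probe sets, 9 had all of them below 0 in the mean of the paced groups, 1 had all above 0 (MRPL16) and 3 had opposite signs. In MRPL14 the bright probe sets differed by -0.22 and -0.24 and the third by 0.03, in MRPL52 by -0.08 and, for the dim one, 0.07, and in MRPS25 by -0.06 and 0.16. Both probe sets of MRPL1 differed alike (-0.35 and -0.31), as did those of MRPL45 (-0.34 and -0.23) and of MRPS30 (-0.16 and -0.11). The dim probe set of MRPL45 gave the larger End-stage difference, -0.58 (adjusted p = 0.316), at signals of 73.7 to 88.8 against 113 to 138 at Day-0.

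The related genes showed where the members stood among other groups. The 52 measured nuclear subunits of the respiratory chain and ATP synthase had medians of -0.23, -0.26, -0.22 and -0.21 at the 4 stages. In the mean of the paced groups 51 of the 52 lay below 0 and 0 passed the threshold. The 61 measured cytosolic ribosomal proteins had a median of 0 in the mean of the paced groups, with 30 of 61 below 0. The groups also differed in how their genes varied between dogs of one stage. Over pairs of genes, the median correlation of deviations from the group means across the 15 dogs was 0.11 in the members, 0.55 in the respiratory chain and 0.72 in the cytosolic ribosome, and 0 over all genes. All pairs share the same arrays and scaling. The median of the cytosolic ribosomal proteins was lowest in dog 1 of every group (-0.26 to -0.10), and that of the respiratory chain was too, whereas the members had no such order.

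**Figure D4:**
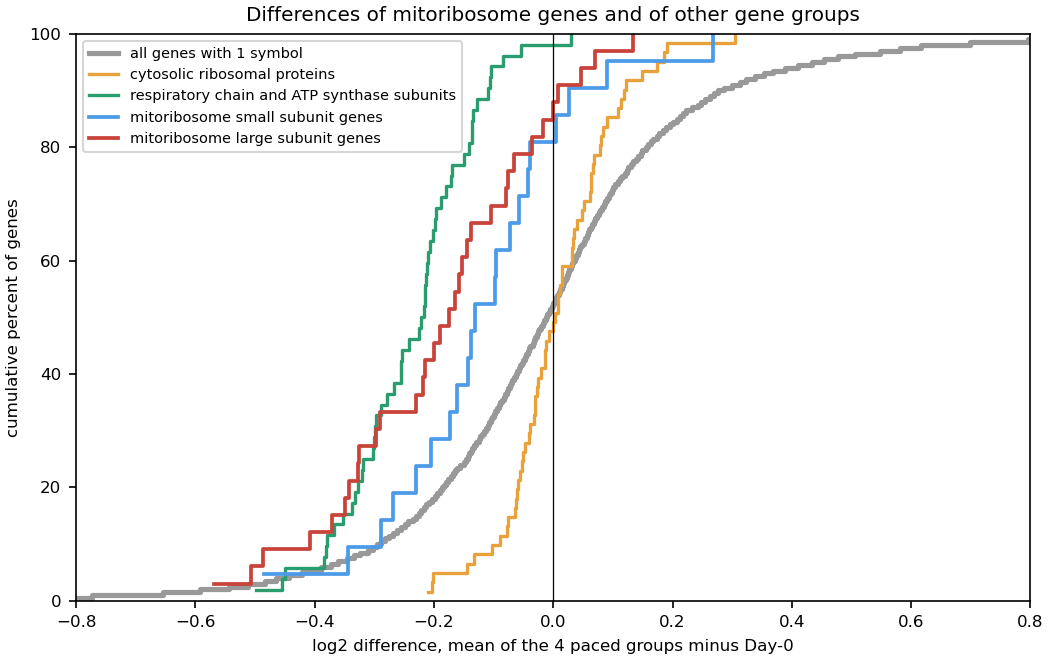
Cumulative percent of genes (y) against the log2 difference between the mean of the 4 paced groups and Day-0 (x) for the 33 large-subunit and 21 small-subunit genes, 52 respiratory chain and ATP synthase genes, 61 cytosolic ribosomal genes and 5278 genes with 1 symbol; values outside -0.8 to 0.8 are not drawn. Both mitoribosome curves lie left of the curve of all genes, with medians of -0.18 and -0.13 against -0.01, and the cytosolic ribosome is centred at 0.

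Other genes of mitochondrial translation were described from lists, and none of their members passed the threshold in the mean of the paced groups. All 3 measured subunits with other symbols lay below 0: PTCD3 at -0.25, DAP3 at -0.23 and CHCHD1 at -0.08. All 7 translation factors did so as well, with a median of -0.18. MTFMT, which formylates the initiator transfer RNA, differed by -0.33 (adjusted p = 0.192), the initiation factor MTIF2 by -0.18 and the elongation factor TSFM by -0.13. Of 7 genes for ribosome assembly and ribosomal RNA modification 5 lay below 0, with METTL17 at -0.23 and ERAL1 and RBFA at -0.17 each. The mitochondrial aminoacyl-tRNA synthetase list was split, with a median of 0, 4 of 7 below 0 and 3 above, the highest at 0.45. Among those below were VARS2 at -0.41 (adjusted p = 0.199), CARS2 at -0.36 and the amidotransferase subunit GATC at -0.27.

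Of 13 genes for mitochondrial DNA maintenance and transcription, 10 lay below 0, with a median of -0.18. SUCLA2, whose loss depletes mitochondrial DNA, differed by -0.54 (adjusted p = 0.127) and the transcription factor TFB2M by -0.38 (adjusted p = 0.163), both with all 12 paced dogs below Day-0. Of 7 measured regulators of mitochondrial biogenesis 3 lay below 0, and their median was 0.06. The coactivator PPARGC1A differed by -0.33 with an SE of 0.20 (adjusted p = 0.61) and did not pass the threshold.

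Markers of the cell types in the wall were summarised in the same way, and none passed the threshold. In the mean of the paced groups the 12 cardiomyocyte markers had a median of -0.16, with 11 below 0 and RYR2 at -0.47 (adjusted p = 0.0711), and their summed signal ranged from 89300 to 132000 in Day-0 dogs and from 83500 to 123000 in paced dogs. The 6 fibroblast markers had a median of 0.44 and 5 above 0, the 9 macrophage and leukocyte markers 0.22 and 6 above 0, the 6 endothelial markers -0.15 and the 6 smooth muscle and pericyte markers -0.30. The fibroblast sum was 6340 to 9470 at Day-0 and 6640 to 11800 in paced dogs, and the macrophage and leukocyte sum 819 to 1110 and 808 to 1610. The endothelial sum was 5930 to 6880 and 5360 to 7140, and the smooth muscle and pericyte sum 6480 to 8330 and 5190 to 8360. These paced ranges pool the stages. The endothelial sum at Week-1, 5360 to 5590, lay below all Day-0 dogs. So did the smooth muscle and pericyte sum at End-stage, 5190 to 5490. At their other stages, and in the other lists at every stage, the sums overlapped with Day-0. POSTN and FCER1G were below the signal limit and no marker was at 0. The part of cell composition in the lower signals of the mitochondrial ribosomal proteins was not tested.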

How the data were processed

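MAS5 signal intensities were deposited by the authors for 45 arrays; the labels name GCOS 1.4 and MAS5, per the submitters' processing notes, and no further step or target scaling is given in the sources used here. Genes were named from the platform annotation table of 2016, and positions come from a RefSeq gene table of the assembly UU_Cfam_GSD_1.0. The number of dogs, 3 per group, limits the precision. Here, 77 control probe sets were left out, log2 signals of the 3 isolations were averaged to 1 value per dog, and the lowest 40% of probe sets by mean log2 signal were left out. One limma fit (version 3.58.1, R 4.3.3; a mean per group, eBayes with intensity trend) over 15 dogs and 14302 probe sets gave 8 comparisons and an F test; p-values are two-sided with Benjamini-Hochberg adjustment. The method was run on simulated data with planted differences far larger than those of most members, so differences of their size were not tested. Members and lists were chosen with earlier results of these data known. Members named singly were those past the threshold, the largest differences without overlap, the brightest and dimmest, a fixed set of known genes and genes with discordant probe sets; others with values were added to show the range. Alternatives covered the low-signal filter, scaling, offset, averaging, blocking and left-out arrays or dogs.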

Additional observations from a re-analysis of the deposited data

Results flagged for a closer look

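In a few members all dogs of one paced stage lay above the Day-0 mean and all dogs of another lay below it. For the dimmest MRPS12 probe set the Week-2 dogs exceeded the Week-1 dogs by 0.49 (0.17 against -0.32 from Day-0, adjusted p = 0.823) and the End-stage dogs by 0.43 (0.17 against -0.26, adjusted p = 0.999). For MRPS16 the Week-1 dogs exceeded the Week-2 dogs by 0.58 (0.47 against -0.11, adjusted p = 0.847). For the brighter MRPL52 probe set the Day-3 dogs exceeded the Week-1 dogs by 0.24 (0.06 against -0.18, adjusted p = 0.994). These p-values are limma's for the direct comparison of the stages, and none passed.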

How the results depend on the processing

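Of 380 counts and medians recomputed under the alternatives, 341 kept their value within the limits set, and of 1032 other values 974 did. The medians below Day-0 at every stage kept their sign throughout. The count of members past the threshold in the mean of the paced groups, 1 in the reported fit, was 0 with no filter, with quantile normalisation, with median centring, without the intensity trend, without isolation 1, 2 or 3, and without both doubtful dogs. It was 2 with the lowest 60% left out and with linear averaging (MRPL38 and MRPL46), and from 0 to 3 with 1 dog left out. Treating the dog as a random effect over the 45 single arrays gave 14 in this comparison, beside 4.9% of all probe sets. It gave 5 at Day-3 (1.91%), 5 at Week-1 (2.64%), 9 at Week-2 (3.38%) and 6 at End-stage (2.25%). It also gave 1 from Week-2 to End-stage (0.021%) and 6 in the F test (3.45%). Members called against Day-0 were lower, except MRPL16, which was higher at Week-1 and Week-2, and lower from Week-2 to End-stage. These counts do not tell its 2 probe sets apart. At Day-0, Week-1 and Week-2 the brighter one had mean log2 signals of 9.05, 9.19 and 9.41. The second one, which split the dogs and not the groups, had 7.57, 9.49 and 9.55. This fit assumes 1 correlation, 0.292, between arrays of a dog for all probe sets. For the second MRPL16 probe set the ratio of variances between dogs and isolations was 101. With the dog number as a replicate block the counts were 3 in the mean of the paced groups (MRPL35, MRPL38 and MRPL46), 1 at Week-1 (MRPL46) and 1 at Week-2 (MRPL38), beside 1.53%, 0.119% and 0.615% of all probe sets; the block changed no other count of members past the threshold. The numbers were not taken as pairs in the reported fit. Same-numbered dogs correlated above 0.1 for every number in 3 of the 10 pairs of groups, none of them with Day-0. Against this, in 48 of 60 comparisons of a dog with another group the closest dog had its own number. Dogs of one number therefore tended to resemble each other, which the reported fit leaves out, and what they share was not tested. Under median centring the median of the member genes was -0.28 at Week-2, 0.09 from Day-3 to Week-1, -0.17 from Week-1 to Week-2 and 0.13 from Week-2 to End-stage, while the medians over all probe sets were -0.09, 0.062, -0.106 and 0.123. The number of members lower at an unadjusted p under 0.05 was 5 at Week-1 without Week-1 dog 1, 9 at End-stage without Day-0 dog 3 and 13 in the mean of the paced groups without Day-0 dog 2. The dim MRPS25 probe set turned to -0.04 without isolation 3. Beyond what these settings themselves remove, the cause was not tested. With 3 dogs a group, the median SE of a single member's stage difference was 0.147.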
